A study of Mus musculus with 6 samples.

Results

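The genes that write, maintain, oxidise and excise DNA methylation were examined in histone mark profiles of germinal center (GC) B cells. The members were the listed genes Dnmt1, Uhrf1, Dnmt3a, Dnmt3b, Tet1, Tet2, Tet3 and Tdg, 8 of the 21864 protein-coding genes of the mouse annotation, and all 8 were found in it. Peaks of each library were placed within 5 kb of a transcription start site (TSS) of a protein-coding transcript (promoter), elsewhere in the gene (gene body), or outside both and up to 50 kb away (outlying).

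Mint-ChIP, a barcoded chromatin immunoprecipitation for small cell numbers, had been run on wild-type mice, with 3 libraries for H3K4me1, a mark typical of enhancers, and 3 for H3K4me3, a mark typical of active promoters. Spleens were collected on day 8 after an injection of sheep red blood cells (SRBC), and each library came from 50000 sorted cells. The labels name GC centrocytes, the light zone fraction, where the methods of the study speak of GC B cells, and the labels' protocol names an H3K27ac antibody where titles and antibody entries name the marks used here. Strain, age and sex were not given for these libraries, nor whether the wild-type mice carried the Cγ1-cre allele of controls elsewhere in the study. The libraries are described as triplicates and nothing states that they came from separate animals, so every p-value measures the spread between these libraries, which may be technical.

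DNA methyltransferases attach methyl groups to cytosines, mainly at CpG dinucleotides. DNMT1, brought to newly copied DNA by UHRF1, restores the pattern after replication, while DNMT3A and DNMT3B methylate new sites and carry a domain that binds histone H3 only where lysine 4 is unmethylated. The TET enzymes oxidise methylated cytosine, TDG cuts out the most oxidised forms for repair, and in GC B cells, which divide rapidly and mutate their antibody genes, methylation is known to be remodelled.

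The H3K4me1 lists held 11922 to 24136 peaks with a median width of 253 to 270 bp, and the H3K4me3 lists held 41936 to 46707 peaks with a median width of 821 to 857 bp. H3K4me1 was called in narrow mode and H3K4me3 in broad mode, so mark and calling mode cannot be told apart in any contrast between them. Total reads were not used here, and a gene without a peak had none past the authors' threshold at this depth. Of 8 GC B cell marker genes all 8 had a promoter H3K4me3 peak in 3 of 3 libraries and 7 had an H3K4me1 peak in 3 of 3. No T cell marker of 4 had a promoter H3K4me3 peak in 3 of 3 libraries, but 2 of 4 myeloid (Itgam, Cd14), 2 of 3 erythroid (Klf1, Epor), 3 of 3 plasma cell and 2 of 3 stromal and endothelial markers (Pecam1, Cdh5) had one. The summed promoter length under H3K4me3 peaks ranged over libraries from 55207 to 60794 bp for the GC B cell list, 0 to 126 bp for the T cell list, 1348 to 3590 bp for the myeloid list, 2285 to 4076 bp for the erythroid list, 10838 to 11434 bp for the plasma cell list and 6637 to 7033 bp for the stromal and endothelial list. Lyz2 and Gata1 had no promoter H3K4me3 peak in any library. The part of other cell types in the members' peaks was not tested.

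All 8 genes had a promoter H3K4me3 peak in 3 of 3 libraries, as had 56.2% of protein-coding genes. For H3K4me1 this held at 1 of the 8, Tet3, beside 6.17% of all genes. Dnmt1 and Tdg had one in 2 libraries, Dnmt3a and Tet1 in 1, and Dnmt3b, Uhrf1 and Tet2 in none. Left with the other 2 libraries, the H3K4me1 count was 2 without replicate 1 (Dnmt1 and Tet3) and 2 without replicate 3 (Tet3 and Tdg). The H3K4me3 count fell to 5 (Dnmt1, Uhrf1, Dnmt3b, Tet2 and Tdg) among peaks with a −log10 q-value of at least 5 and to 1 (Tdg) with only the 10000 best peaks per library kept. Shares of all genes with a library left out or under these stricter settings are not given here. The genes differed in which of their start sites the H3K4me3 peak reached. A start was covered in 3 of 3 libraries at Dnmt1, Uhrf1, Dnmt3a, Dnmt3b, Tet2 and Tdg, 6 of the 8 genes, beside 38.3% of all genes, and at neither of the annotated starts of Tet1 or Tet3. Over the 8 genes this was 17 of 24 annotated starts, several of them a few bases apart, beside 36.1% of 41451 starts in all. H3K4me1 peaks covered none of the 24 in any library, and an H3K4me1 peak covered a start in 3 of 3 libraries at 0.0145% of all starts and 0.0229% of all genes.

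**Figure D1:**
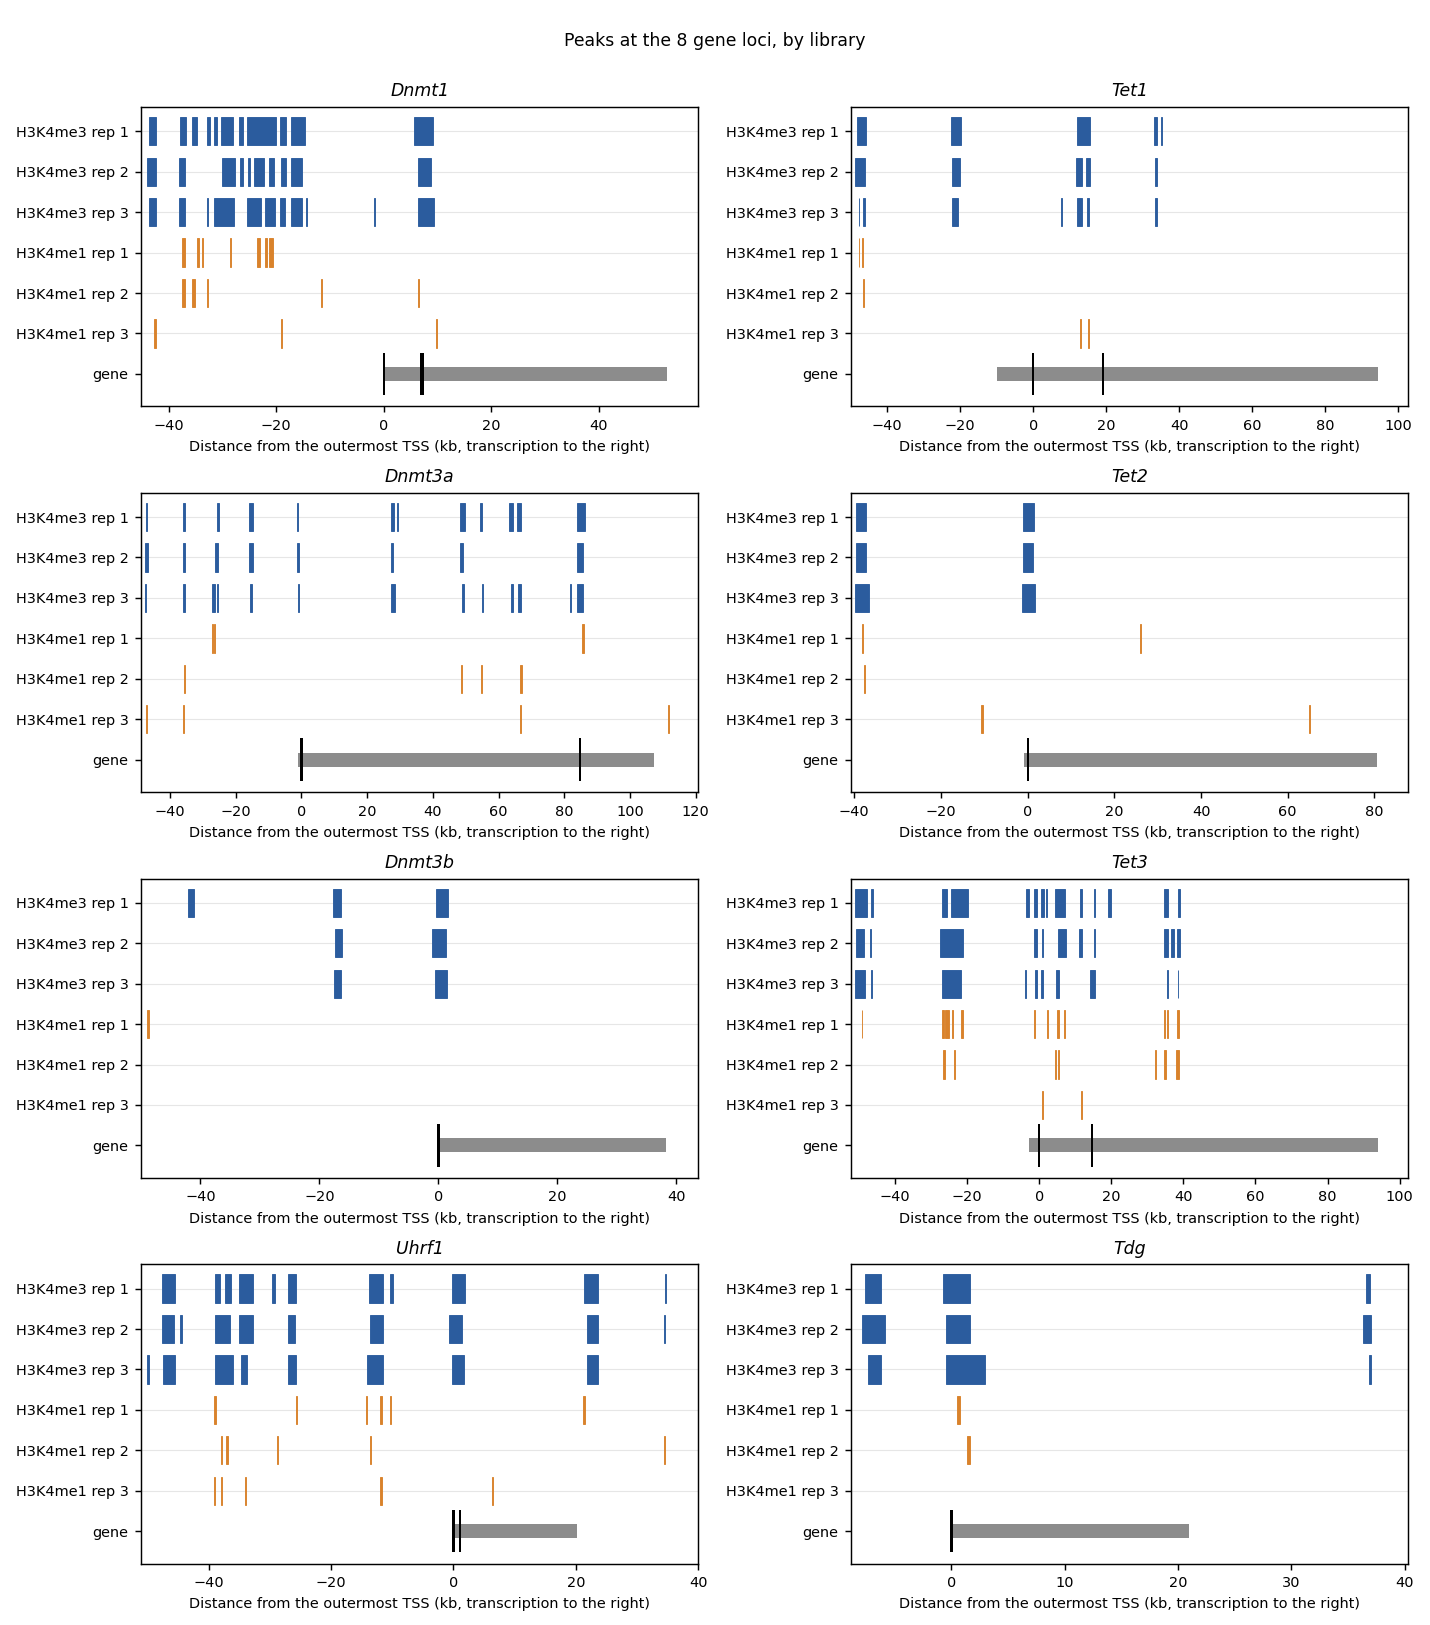
Peaks at the 8 loci in each of the 6 libraries, drawn to scale by distance in kb from the outermost annotated start, with transcription to the right. Blue bars are H3K4me3 peaks, orange bars H3K4me1 peaks, grey bars the gene and black ticks its start sites. An H3K4me3 peak lies within 5 kb of a start of all 8 genes in 3 of 3 libraries.

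The maintenance genes came first. Dnmt1 (ENSMUSG00000004099.16, GRCm38 chr9:20907209-20959888, minus strand) has an upstream start at position 20959888 and a group of downstream starts between 20952605 and 20952979. A single broad H3K4me3 peak of 3396, 2448 and 2956 bp in replicates 1, 2 and 3, with a fold enrichment over local background of 5.92, 5.29 and 5.74, covered all 3 downstream starts. The upstream start was covered in 0 of 3 libraries, and only replicate 3 had a peak close to it, 204 bp wide and 1540 bp away. The upstream promoter and that of the downstream start at 20952623 are shown for their CpG content, as reference sequences from 250 bases before to 50 after the start. Here and for the other genes they are printed 5′ to 3′ on the gene's strand from RefSeq GRCm38.p6, with each CpG in capitals. All 8 genes matched the promoter table, with 13 of its 32851 entries.

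Dnmt1 downstream, chr9:20952574-20952873, minus: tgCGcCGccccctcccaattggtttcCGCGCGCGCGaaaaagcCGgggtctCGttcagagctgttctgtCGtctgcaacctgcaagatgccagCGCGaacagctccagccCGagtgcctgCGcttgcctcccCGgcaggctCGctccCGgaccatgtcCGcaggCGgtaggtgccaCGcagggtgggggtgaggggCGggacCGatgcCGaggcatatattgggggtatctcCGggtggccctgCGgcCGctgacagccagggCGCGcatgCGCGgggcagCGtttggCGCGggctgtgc
Dnmt1 upstream, chr9:20959839-20960138, minus: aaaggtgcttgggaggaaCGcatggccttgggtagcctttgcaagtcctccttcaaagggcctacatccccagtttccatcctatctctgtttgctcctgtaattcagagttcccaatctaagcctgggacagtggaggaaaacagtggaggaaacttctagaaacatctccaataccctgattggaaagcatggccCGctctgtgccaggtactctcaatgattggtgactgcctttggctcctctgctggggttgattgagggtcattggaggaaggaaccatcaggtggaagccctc

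The downstream promoter, under the H3K4me3 peak, held 33 CpGs in 300 bases, more than 91.4% of all promoters of this length, and the upstream promoter held 2, where the median promoter held 7. The promoter of the downstream start at 20952979, under the same H3K4me3 peak, held 12. H3K4me1 peaks near Dnmt1 were small. Replicate 2 had one of 214 bp that lay 358 bp upstream of the outermost downstream start, replicate 3 had one of 185 bp that lay 2522 bp downstream of the innermost downstream start, and replicate 1 had none. The promoter length under peaks of the gene was 3396, 2448 and 3160 bp for H3K4me3 and 0, 214 and 185 bp for H3K4me1.

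Uhrf1 (ENSMUSG00000001228.14, chr17:56303321-56323486, plus strand) encodes the protein that binds hemimethylated CpG and brings DNMT1 to it. Its H3K4me3 peak of 2227, 2161 and 1963 bp, with a fold of 7.25, 5.76 and 6.75, covered all 4 annotated starts in 3 of 3 libraries. No promoter H3K4me1 peak was present in any library, and the gene body held a single one of 187 bp in replicate 3, in an exon 5219 bp from the nearest start. The promoter of the RefSeq start at 56304313 is shown because it shared a short motif with the printed downstream promoter of Dnmt1.

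Uhrf1, chr17:56304063-56304362, plus: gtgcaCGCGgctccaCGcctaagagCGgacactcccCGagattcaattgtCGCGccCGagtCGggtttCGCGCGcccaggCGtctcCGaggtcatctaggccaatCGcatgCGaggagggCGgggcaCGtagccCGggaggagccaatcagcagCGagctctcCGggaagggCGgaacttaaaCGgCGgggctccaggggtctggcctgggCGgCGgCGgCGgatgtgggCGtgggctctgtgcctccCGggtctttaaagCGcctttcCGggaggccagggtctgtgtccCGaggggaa

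This promoter also held 33 CpGs, and that of the other RefSeq start at 56303337, also covered in 3 of 3 libraries, held 12. An E2F-type motif, searched on both strands as TTTCCCGC, TTTCGCGC, TTTGCCGC or TTTGGCGC, was found in the printed downstream promoter of Dnmt1 as TTTCGCGC and TTTGGCGC and in the printed one of Uhrf1 as TTTCGCGC. No other promoter sequence of the 8 genes held it, those of the Dnmt1 start at 20952979 and the Uhrf1 start at 56303337 included. Of all 32851 promoters 2.26% held it. E2F factors are known to drive genes of DNA replication. A match of these letters is a description and not a bound site. The CCAAT box (CCAAT), held by 37.4% of all promoters, was present in at least 1 promoter of Dnmt1, Uhrf1, Tet3 and Tdg. The GC box (GGGCGG, which can overlap the other motifs), held by 35.7% of all, was present in at least 1 promoter of every member except Tdg. These shares are per promoter, while the members are given per gene. A gene with more than 1 promoter has more chances to hold a motif, so the 2 are not like for like.

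Among the de novo writers, Dnmt3a (ENSMUSG00000020661.15, chr12:3806007-3914443, plus strand) has start sites for a long form near the beginning of the gene and, far inside it, start sites for the short form known as Dnmt3a2. The short-form starts at 3891728 and 3891744 lay under H3K4me3 peaks of 2681, 2017 and 1991 bp in replicates 1, 2 and 3, with a fold of 5.70, 5.05 and 6.51. The long-form starts at 3807030 and 3807160 were covered in 0 of 3 libraries. There the closest peaks were narrow, 246, 517 and 276 bp wide with a fold of 3.14, 3.64 and 3.39, and ended 928, 673 and 800 bp upstream of the start at 3807030. In each library this peak spanned position 3806007, where the annotated gene begins. That position is not among the protein-coding starts used here. So in each library the short-form starts had the wider peak and the higher fold.

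Dnmt3a long form, chr12:3806910-3807209, plus: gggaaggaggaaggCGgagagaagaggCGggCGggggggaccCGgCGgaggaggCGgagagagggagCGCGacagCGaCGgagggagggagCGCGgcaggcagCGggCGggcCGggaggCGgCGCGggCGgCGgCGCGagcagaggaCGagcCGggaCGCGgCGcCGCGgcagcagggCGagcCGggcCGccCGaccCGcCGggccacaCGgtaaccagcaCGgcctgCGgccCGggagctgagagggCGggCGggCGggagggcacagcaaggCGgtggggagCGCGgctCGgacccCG
Dnmt3a short form, chr12:3891494-3891793, plus: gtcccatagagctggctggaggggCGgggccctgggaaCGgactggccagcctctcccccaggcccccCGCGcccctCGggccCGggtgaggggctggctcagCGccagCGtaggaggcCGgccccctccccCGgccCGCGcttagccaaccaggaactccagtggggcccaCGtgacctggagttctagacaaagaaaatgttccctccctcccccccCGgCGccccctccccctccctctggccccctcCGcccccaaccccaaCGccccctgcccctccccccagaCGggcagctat

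The CpG content ran the other way from that at Dnmt1. The uncovered long-form promoter held 47 CpGs, more than 98.6% of promoters, and the covered short-form promoter 18, more than 70.3%. In the 1001 bp around the start the long form at 3807160 had 165 CpGs and an observed-to-expected CpG ratio of 0.99, against 49 and 0.50 for the short form at 3891744. Of 18760 CpG-rich starts in the annotation, 45.3% of all and defined as those with a ratio of at least 0.6 and a GC content of at least 50%, 58.5% were covered by H3K4me3 in 3 of 3 libraries and 22.5% in 0 of 3, so an uncovered start of this kind was not rare. Among the other starts 17.6% were covered in 3 of 3. The long-form start at 3807160 had a GC content of 82.2% over its 1001 bp, and starts that rich in GC were not counted separately.

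The body of Dnmt3a held 6, 2 and 5 H3K4me3 peaks in replicates 1, 2 and 3, all more than 5 kb from a start of the GENCODE basic set. A further start at 3861021, listed only in the comprehensive annotation, had H3K4me3 peaks beginning 491 and 982 bp downstream in replicates 1 and 3. One at 27.2 to 28.4 kb from the outermost start, partly in an exon, was 727, 622 and 1214 bp wide, and one in an intron at 48.2 to 49.7 kb was 1354, 973 and 775 bp wide. Both were present in all 3 libraries. H3K4me1 in the body was seen in replicates 2 and 3, with 3 peaks and 1 peak, and these libraries shared one of them at chr12:3873610-3874045 in an intron. The promoter length under peaks was 2927, 2534 and 2460 bp for H3K4me3 and 392, 0 and 0 bp for H3K4me1, where the only H3K4me1 peak began 824 bp downstream of a short-form start.

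Dnmt3b (ENSMUSG00000027478.15, chr2:153649450-153687730, plus strand), the other de novo enzyme, had the plainest locus. A single H3K4me3 peak of 2105, 2206 and 1947 bp, with a fold of 6.41, 5.20 and 5.84, covered all 4 of its starts in 3 of 3 libraries. No promoter or gene body H3K4me1 peak was present in any library and no H3K4me3 peak lay in the body beyond the promoter. Its RefSeq promoter held 30 CpGs, more than 88.3% of all.

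**Figure D2:**
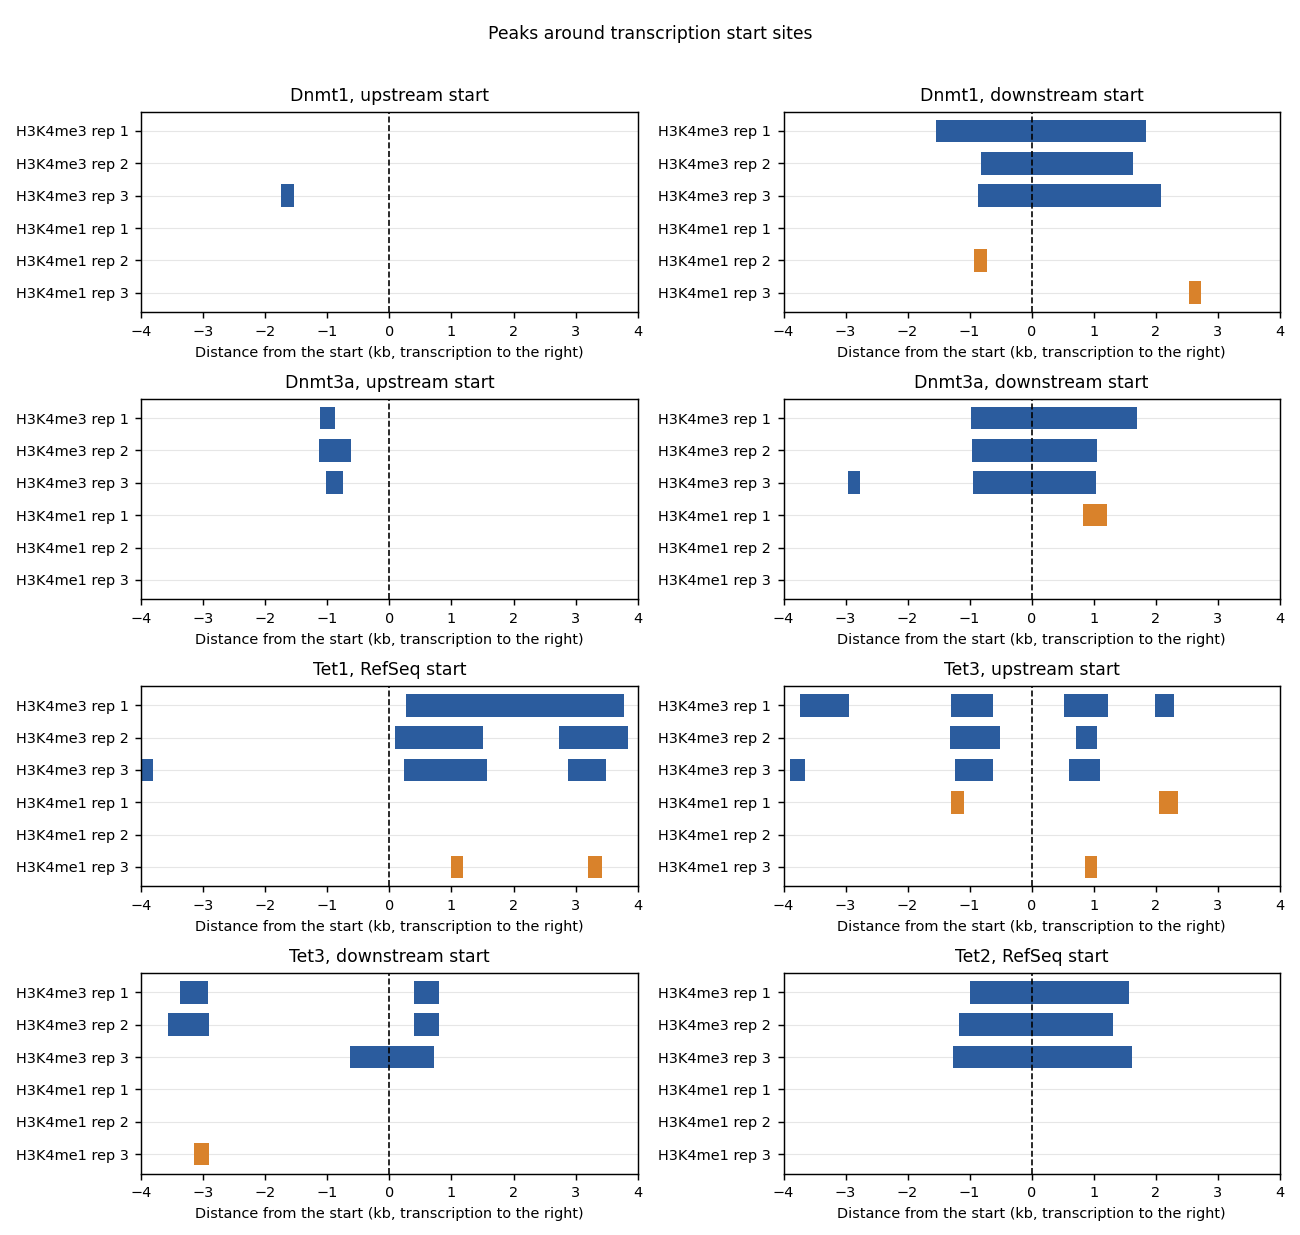
Peaks within 4 kb of 8 start sites of Dnmt1, Dnmt3a, Tet1, Tet3 and Tet2, by distance in kb from the start (dashed line) with transcription to the right, 1 track per library, with H3K4me3 in blue and H3K4me1 in orange. The downstream starts of Dnmt1 and Dnmt3a and the Tet2 start are covered by H3K4me3 in 3 of 3 libraries, while the Tet3 upstream start lies in a gap and H3K4me3 begins just downstream of the Tet1 RefSeq start.

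The TET genes each had a different arrangement. Tet1 (ENSMUSG00000047146.17, chr10:62804570-62908996, minus strand) has basic annotated protein-coding starts at 62899118 and 62880014, and neither was covered in any library. The H3K4me3 peak instead lay between them and began 270, 92 and 228 bp downstream of the RefSeq start at 62887324, which is outside the basic set. It was 3519, 1418 and 1344 bp wide with a fold of 8.38, 4.98 and 6.37. In replicates 2 and 3 a second peak, of 1104 and 604 bp, followed further downstream, and in replicate 1 both positions lay within the one wide peak.

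Tet1, chr10:62887275-62887574, minus: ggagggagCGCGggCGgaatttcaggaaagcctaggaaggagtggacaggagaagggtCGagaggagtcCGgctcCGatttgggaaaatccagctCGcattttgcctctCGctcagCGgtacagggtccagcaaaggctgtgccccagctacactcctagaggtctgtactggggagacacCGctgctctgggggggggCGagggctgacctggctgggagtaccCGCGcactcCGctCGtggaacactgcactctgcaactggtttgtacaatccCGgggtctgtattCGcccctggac

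This promoter held 17 CpGs, more than 68.6% of all. Because only the downstream part of this H3K4me3 came within 5 kb of the basic start at 62880014, the promoter length under H3K4me3 was 1479, 1104 and 604 bp, the shortest mean of the 8 genes and the smallest share of its window. With the start sites of all transcripts of the comprehensive annotation, an alternative chosen after seeing the data, the excess of H3K4me3 over H3K4me1 length rose from 985 to 3306 bp. With the outermost start alone, or within 1 kb of a start, both marks had no promoter length at Tet1. Within the gene H3K4me1 was seen in replicate 3 only, as peaks of 231 and 196 bp inside the H3K4me3 region. A gene body H3K4me3 peak in an intron, at 33.1 to 33.9 kb from the outermost start, was 781, 400 and 564 bp wide, with a fold of 6.22, 8.47 and 4.92.

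Tet2 (ENSMUSG00000040943.12, chr3:133463679-133545139, minus strand), whose loss is frequent in blood cancers, had one broad H3K4me3 peak of 2574, 2484 and 2890 bp over both of its starts, with a fold of 8.03, 6.40 and 5.77. Its RefSeq promoter at chr3:133544341-133544640 held 57 CpGs, more than 99.8% of promoters and the most among the 8 genes. The promoter had no H3K4me1 peak in any library, and the body held 1 of 256 bp in replicate 1 and 1 of 194 bp in replicate 3, at different positions.

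Tet3 (ENSMUSG00000034832.15, chr6:83362373-83459084, minus strand) had several separate peaks near its starts. The upstream start at 83456392 was uncovered in 3 of 3 libraries, with H3K4me3 on both sides. Upstream peaks of 682, 813 and 609 bp ended 621, 509 and 621 bp before it, and downstream peaks of 698, 343 and 487 bp began 528, 715 and 608 bp after it. The gap between them repeated in all 3 libraries. The start at 83441675 was covered in replicate 3 only, by a peak of 1357 bp, while in replicates 1 and 2 peaks of 418 and 410 bp began 386 and 388 bp downstream. An intronic region at chr6:83448879-83451935 held wider H3K4me3 peaks of 2824 and 2196 bp in replicates 1 and 2 and one of 993 bp in replicate 3. The sequence in the gap is printed from the assembly.

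Tet3 upstream, chr6:83456343-83456642, minus: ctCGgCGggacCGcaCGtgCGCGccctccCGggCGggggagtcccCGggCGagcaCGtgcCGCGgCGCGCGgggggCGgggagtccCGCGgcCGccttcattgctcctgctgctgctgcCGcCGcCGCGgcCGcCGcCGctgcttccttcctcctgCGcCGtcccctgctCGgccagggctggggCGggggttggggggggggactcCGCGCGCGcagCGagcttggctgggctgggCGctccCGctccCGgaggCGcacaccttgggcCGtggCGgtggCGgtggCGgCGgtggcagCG

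It held 46 CpGs, more than 98.4% of promoters. The 1001 bp around the start had an observed-to-expected ratio of 0.82 and a GC content of 78.9%. Tet3 also had the longest mean promoter length under H3K4me1 of the 8 genes, in bp. Its promoter length under H3K4me1 was 543, 253 and 433 bp, against 4504, 2230 and 3100 bp for H3K4me3. The H3K4me1 peaks of the libraries lay mostly at different places, and only the intronic one at chr6:83450801-83451415, was shared, between replicates 1 and 2. In the body, replicates 1 and 2 had 4 H3K4me1 peaks each and replicate 3 had 0, and they shared intronic regions at chr6:83417739-83418313 and chr6:83421192-83421756. Both of these overlapped H3K4me3 regions found in 3 of 3 libraries.

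Tdg (ENSMUSG00000034674.18, chr10:82629828-82650799, plus strand), the glycosylase that removes oxidised cytosines, had a single H3K4me3 peak of 2423, 2101 and 3476 bp over both starts, with a fold of 6.58, 6.19 and 6.53. The peak of replicate 3 reached 2972 bp past the first start and those of replicates 1 and 2 reached 1681 and 1645 bp. H3K4me1 peaks of 332 and 225 bp lay 453 and 1389 bp downstream of the starts in replicates 1 and 2, within the H3K4me3 peak. Its RefSeq promoter held 26 CpGs, more than 83.1% of promoters.

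**Figure D3:**
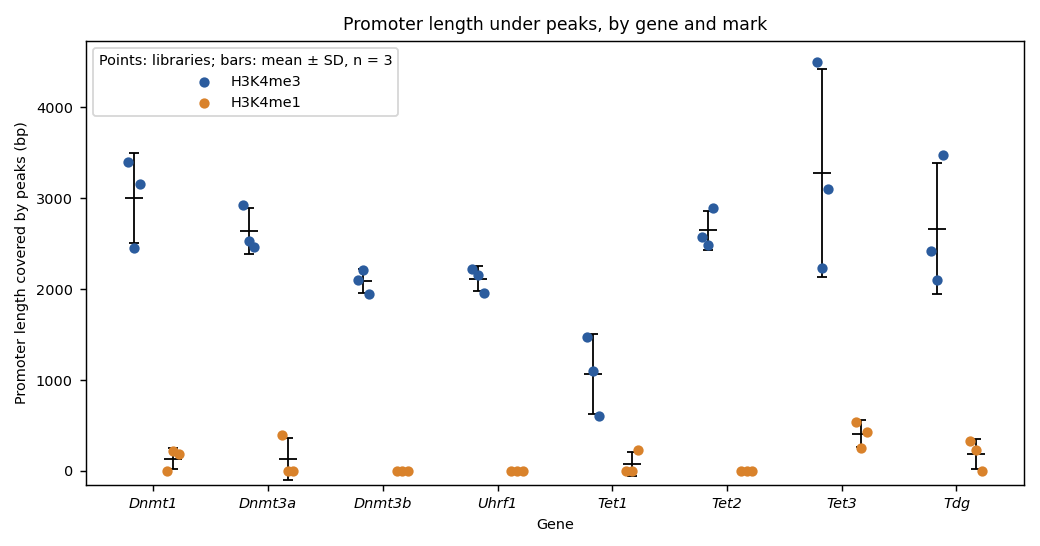
Promoter length under peaks in bp for each gene, with 1 point per library (H3K4me3 blue, H3K4me1 orange) and bars for the mean and SD of 3 libraries. At all 8 genes the lowest H3K4me3 library lies above the highest H3K4me1 library.

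The 2 marks were compared by the promoter length under peaks. The means were 3001 ± 494 bp for H3K4me3 and 133 ± 116 bp for H3K4me1 at Dnmt1 (SD, n = 3 for each mark here and in what follows), and 2117 ± 137 bp and 0 bp at Uhrf1. At Dnmt3a they were 2640 ± 251 and 131 ± 226 bp, and at Dnmt3b 2086 ± 131 and 0 bp. Among the erasers they were 1062 ± 439 and 77.0 ± 133 bp at Tet1, 2649 ± 213 and 0 bp at Tet2, 3278 ± 1147 and 410 ± 146 bp at Tet3, and 2667 ± 719 and 186 ± 169 bp at Tdg. At all 8 genes each H3K4me3 library was above each H3K4me1 library. The same held for 84.4% of the 14451 genes with a promoter peak of either mark, and the reverse for 0. In a two-sided exact permutation test over the 20 assignments of the libraries p was 0.1 for each gene, which is the smallest value the design can give, and 0.119 after Benjamini-Hochberg adjustment over all genes tested, so that no gene could pass 0.05. The windows differ in size with the number and spacing of starts, from 10023 bp at Tet2 to 20148 bp at Dnmt3a. As a share of its window the H3K4me3 length was 26.6% ± 7.2 at Tdg, 26.4% ± 2.1 at Tet2, 20.5% ± 1.3 at Dnmt3b, 19.2% ± 1.2 at Uhrf1, 17.4% ± 2.9 at Dnmt1, 16.4% ± 5.7 at Tet3, 13.1% ± 1.2 at Dnmt3a and 5.31% ± 2.2 at Tet1 (SD, n = 3), so Tet3, the highest in bp, was not the highest by share. The median over the 8 genes was 2645 bp for H3K4me3 and 104 bp for H3K4me1, beside 1876 and 67.3 bp over all genes tested.

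By the mean width of the widest promoter H3K4me3 peak the order was Dnmt1 (2933 ± 474 bp), Tdg (2667 ± 719 bp), Tet2 (2649 ± 213 bp), Dnmt3a (2230 ± 391 bp), Uhrf1 (2117 ± 137 bp), Dnmt3b (2086 ± 131 bp), Tet1 (1742 ± 1559 bp) and Tet3 (1665 ± 1040 bp). The library ranges of every pair of neighbours in this order overlapped. Those of Dnmt1 and Tet2 lay wholly above those of Uhrf1 and Dnmt3b. Among the 12286 genes with such a peak in 3 of 3 libraries the median was 1901 bp and the upper quartile 2554 bp. Dnmt1 was wider than 82.6% of them, Tdg than 77.5%, Tet2 than 77.3%, Dnmt3a than 64.5%, Uhrf1 than 60.1%, Dnmt3b than 58.7%, Tet1 than 42.5% and Tet3 than 38.9%. Dnmt1, Tdg and Tet2 were thus above the upper quartile. At Tet3 the widest promoter peak lay at a different place in each library. At Tet1 it was the wide peak of 3519 bp in replicate 1 but only the second peak, of 1104 and 604 bp, in replicates 2 and 3. The widths and ranks of Tet1 and Tet3 thus follow the 5 kb rule and do not describe a single peak.

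**Figure D4:**
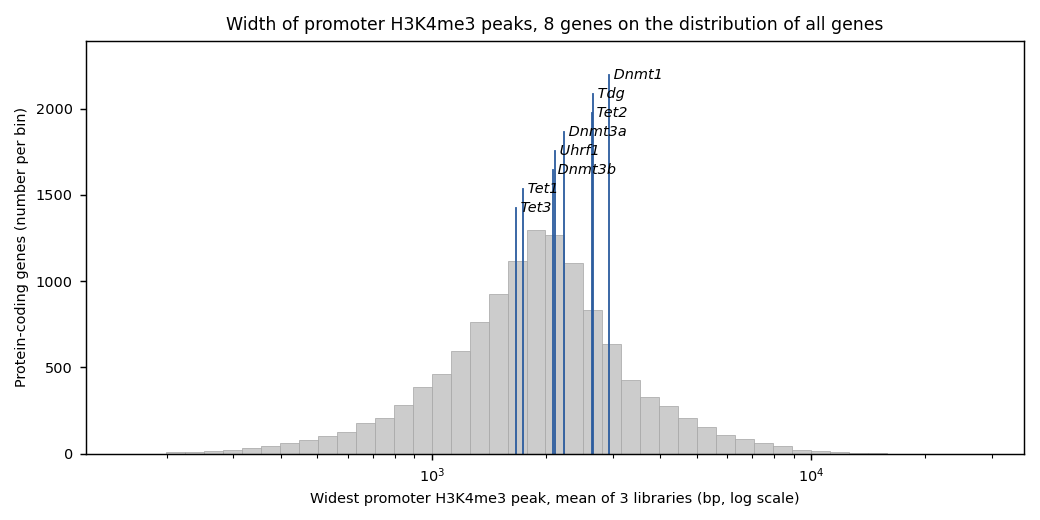
Width of the widest promoter H3K4me3 peak, as the mean of 3 libraries in bp on a log scale, over 12286 protein-coding genes (grey bars, number of genes per bin), with the 8 genes as blue lines whose heights only separate the names. They run from 1665 bp for Tet3 to 2933 bp for Dnmt1, around a median of 1901 bp over all genes. For Tet1 and Tet3 the widest peak was not the same one in each library.

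Away from the promoters, 3 of the 8 genes, Dnmt3a, Tet1 and Tet3, had a gene body H3K4me3 peak in 3 of 3 libraries, beside 19.3% of all genes, and 0 of 8 had a gene body H3K4me1 peak in 3 of 3, beside 6.64%. With 1 H3K4me1 library left out the latter count was 1, namely Dnmt3a without replicate 1, Tet2 without replicate 2 and Tet3 without replicate 3. Dnmt3a, Tet1 and Tet3 are also the longest of the 8 genes, at 108, 104 and 96.7 kb. Tet2, the next longest at 81.5 kb, had no gene body H3K4me3 peak in any library. The 19.3% is not matched for gene length, whose part was not tested. All 8 genes had outlying H3K4me3 in every library of that mark, beside 60.3% of all genes, and 4 of 8 had outlying H3K4me1 in 3 of 3, Dnmt1, Uhrf1, Dnmt3a and Tet2, beside 20.4%.

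**Figure D5:**
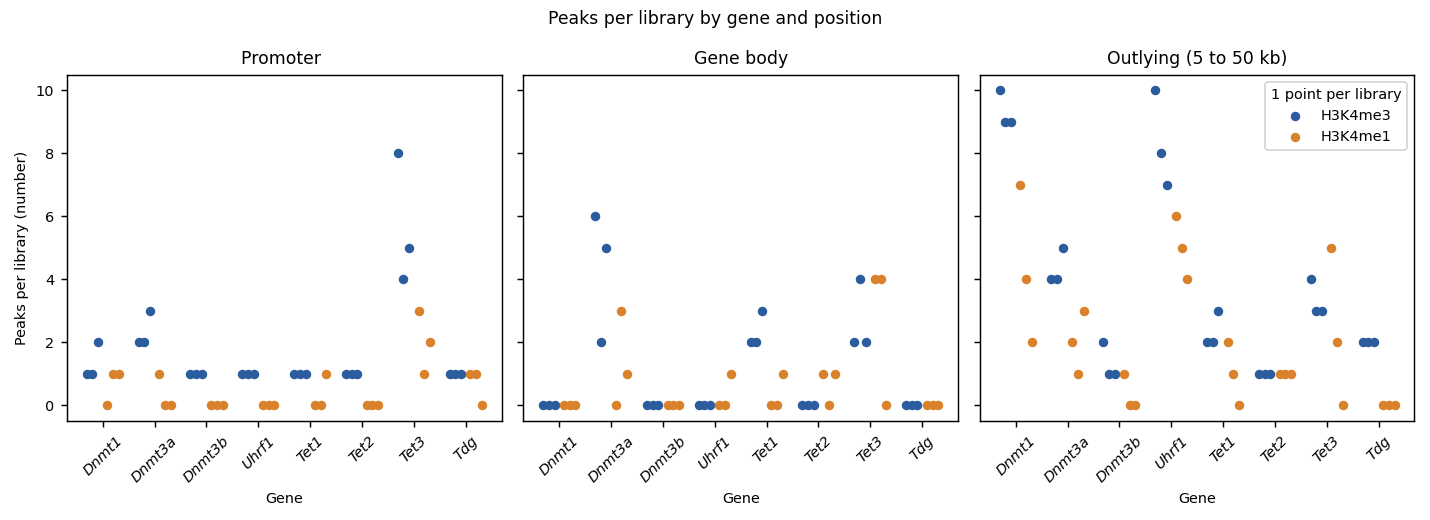
Number of peaks per library at each gene by position, with 1 point per library (H3K4me3 blue, H3K4me1 orange), for promoter (within 5 kb of a start), gene body and outlying (up to 50 kb) peaks. Outlying H3K4me3 peaks are most numerous at Dnmt1 and Uhrf1, and gene body peaks at Dnmt3a and Tet3.

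Many outlying peaks lay within 5 kb of a start of a neighbouring gene. At Dnmt1, 5, 5 and 6 of the 10, 9 and 9 outlying H3K4me3 peaks did, and they belonged to S1pr2, a receptor that keeps B cells inside the GC, and Mrpl4. The widest such region, at S1pr2, spanned chr9:20979921-20985408 with the libraries joined. Replicate 1 had a single peak of 5401 bp there. In replicates 2 and 3 it was split, and the peaks from 20982183 onward lay more than 5 kb from any start of another protein-coding gene. At Uhrf1, 6, 5 and 5 of 10, 8 and 7 did, at Fem1a, Ticam1, Plin3 and the histone demethylase gene Kdm4b. At Tet1 every outlying peak of either mark lay at Slc25a16 or Dna2. At Dnmt3b the shared outlying region lay at Commd7, at Tdg at 1190007I07Rik, and at Tet3 in part at Dguok. At Dnmt3a and Tet2 no outlying peak lay within 5 kb of a start of another protein-coding gene.

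The outlying H3K4me3 regions found in 3 of 3 libraries and away from such starts were few. Dnmt3a had 4 upstream, at 47.7 to 46.8, 36.2 to 35.5, 26.3 to 25.1 and 16.0 to 14.7 kb before its outermost start, and H3K4me1 peaks overlapped the first 3 in at least 1 library each. Tet2 had 1, chr3:133580994-133584100, at 39.7 to 36.6 kb upstream, where H3K4me1 replicates 1 and 2 each had a peak, of 244 and 239 bp, that did not overlap each other. Tet3 had 1, chr6:83476118-83483792, at 27.4 to 19.7 kb upstream, 7675 bp when the 3 libraries are joined, where replicates 1 and 2 shared H3K4me1 at chr6:83481459-83483211 and replicate 3 had none. Uhrf1 had 2, at 39.1 to 36.1 kb and 35.1 to 32.7 kb upstream, and the first also held H3K4me1 peaks in all 3 libraries, though at no base common to all 3. Dnmt1 had 1 at 31.6 to 27.6 kb upstream and Tdg had 1 of 710 bp at 36.3 to 37.1 kb downstream. Which gene any of these regions acts on was not measured.

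In all, the 8 loci held 61, 50 and 56 H3K4me3 peaks and 34, 24 and 18 H3K4me1 peaks in replicates 1, 2 and 3. Of the H3K4me1 peaks 31 of 34, 21 of 24 and 13 of 18 overlapped an H3K4me3 peak of some library by at least 1 bp, or 91.2%, 87.5% and 72.2%, beside 80.0%, 80.7% and 84.2% of all H3K4me1 peaks of those libraries. They were shallow, with a median of 6 fragments at the summit in each library and a range of 4 to 10. The median over all H3K4me1 peaks was also 6 in each library. Of the H3K4me1 peaks 23.5%, 29.2% and 22.2% overlapped one of another H3K4me1 library, beside 31.0%, 43.1% and 46.6% of all H3K4me1 peaks of those libraries. For H3K4me3 the shares were 86.9%, 96.0% and 89.3%, beside 72.1%, 78.9% and 78.6%. Joined over libraries, the H3K4me1 peaks formed 66 regions, of which 57 were seen in 1 library, 9 in 2 and 0 in 3, and the H3K4me3 peaks formed 66 regions, of which 16 were seen in 1, 8 in 2 and 42 in 3.

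Partner genes of the pathway were counted by role from a list of 27. Promoter H3K4me3 was seen in 3 of 3 libraries at 25 of them, beside 56.2% of all protein-coding genes. Promoter H3K4me1 was seen in 3 of 3 at 6 (Usp7, Mbd1, Zbtb38, Mbd4, Gadd45a and Gadd45b), beside 6.17% of all. All 4 maintenance partners (Uhrf2, Hells, Cdca7, Usp7), all 6 readers of methylated DNA, all 8 repair genes and all 6 genes of cofactor supply and TET partners had H3K4me3. Of the 3 germline cofactors Dnmt3l, which partners DNMT3A in germ cells, had it in 3 of 3 libraries with a mean of 683 bp, and Dppa3 and Zfp57 in 2, with means of 178 and 381 bp. H3K4me3 was above H3K4me1 with no overlap of libraries at 25 of the 27, and the others were Dppa3 and Zfp57 (exact permutation p = 0.4 for each, n = 3). Such a lack of overlap was seen at 84.4% of all genes with a promoter peak of either mark. The longest mean lengths under H3K4me3 were 9251 bp at Zbtb38, 6856 bp at Gadd45b and 6009 bp at Mbd4, where the 8 genes had means of 1062 to 3278 bp. The windows differ in size between genes.

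By the Euclidean distance over the 6 libraries of log2(promoter length under peaks + 100 bp), the gene most like Uhrf1 was Arrdc5 at a distance of 0. Arrdc5 lies on the opposite strand with its nearest start 3035 bp away, so both genes had the same peaks in their windows. The nearest genes to Tet2 were Qk, Ankrd10 and Cdk16, and those to Dnmt3a were Rbm15, Opa3 and Dhx57. Genes at a distance under 0.5 numbered 857 for Uhrf1, 828 for Dnmt3b, 498 for Tet2, 142 for Dnmt3a, 17 for Dnmt1, 11 for Tdg, 3 for Tet1 and 0 for Tet3, whose closest was Tctex1d4 at 0.54. By this measure Uhrf1 and Dnmt3b had promoter values that many genes share, and Tet1 and Tet3 had values that few do. The highest counts, at Uhrf1, Dnmt3b and Tet2, were at the genes with no promoter H3K4me1 peak in any library. With 100 bp added, a single small H3K4me1 peak can move a gene past 0.5. The H3K4me3 length of Tet1 also depends on the window rule, so the counts do not show how common an H3K4me3 pattern is.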

How the data were processed

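Peak lists of 6 Mint-ChIP libraries were used, 3 per mark, called by the authors in each library and not on pooled reads. The fold enrichment deposited by the authors is the linear ratio of pileup over background, with −log10 p-values and −log10 q-values of the same comparison, averaged over the peak in the broad lists. The deposited score, which follows the −log10 q-value, stayed unused. The layout is that of MACS2. The submitters' processing notes name BWA, Picard, HOMER, Genrich and mm10 with no role or version, and the caller's settings and control are not given in the sources used here.

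Lists were read as GRCm38, and 0 peaks lay past a chromosome end. Starts were those of protein-coding transcripts in the GENCODE M21 basic set, 41451 distinct positions of 21864 genes. Coverage was in bp of the window within 5 kb of a gene's starts, overlap was at least 1 bp, and python 3.11.15, numpy 2.4.6, pandas 2.3.3 and scipy 1.17.1 were used. Summit fragments of the narrow peaks came from inverting fold and p-value of the Poisson comparison with a tolerance of 0.0005. Marks were compared by two-sided exact permutation of 6 libraries with Benjamini-Hochberg adjustment over 14451 genes. Counts of genes were set beside the share of all genes and not tested. The computation of windows and tests was tested on simulated data.

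All 8 members were named, 27 partner genes were given by role, neighbours were named where an outlying peak lay within 5 kb of their start, and the 3 genes of smallest distance were taken as most like a member, with a pseudocount of 100 bp. The genes most like Dnmt3b are not reported here. The members and lists were chosen with earlier results of these data known. Alternatives were a stricter q-value, the best 10000 peaks, other definitions of start, distance and promoter, at least 2 of 3 libraries, leaving out each library, and the replicate number as a block.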

Additional observations from a re-analysis of the deposited data

How the results depend on the processing

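Over the alternatives 20 counts moved by over 1.5 times, 2 length differences fell to 0, 0 values reversed, and the other 169 were counts within 1.5 times or length differences that kept their direction, though not always their size. Among the 169 are the length differences with distance from the peak midpoint and with the replicate block, which equal the main values by construction. Requiring a −log10 q-value of at least 5 gave promoter peaks in 3 of 3 libraries at 5 genes (H3K4me3) and 0 (H3K4me1), outlying peaks at 5 (H3K4me3) and 0 (H3K4me1), and no overlap between marks at 5. The 10000 best peaks of each library gave promoter H3K4me3 at 1 gene, promoter H3K4me1 at 0, gene body H3K4me3 at 0, outlying H3K4me3 at 3 and no overlap at 1. These 2 settings keep fewer peaks by construction. Shares of all genes under the alternative settings are not given here, so these counts cannot be set against those of other genes. Promoter H3K4me1 was present at 0 genes within 1 kb of a start, at 0 where a peak had to cover the start (chosen after seeing the data) and at 3 in at least 2 of 3 libraries, where gene body H3K4me1 was present at 3. With the outermost start only, gene body H3K4me1 was present at 2 genes. Tet1 had a length difference of 0 with the outermost start only and within 1 kb of a start, and with the outermost start only Dnmt1 had one of 68.0 bp and Dnmt3a one of 346 bp. Tet3 had one of 355 bp at the stricter q-value and 46.3 bp with the 10000 best peaks, and Tet1 one of 3306 bp with the comprehensive annotation (chosen after seeing the data). Without peaks near other genes, outlying H3K4me1 was present at 3 genes and outlying H3K4me3 at 6.

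Leaving out 1 library at a time gave counts of 1 to 2 genes for promoter H3K4me1, 0 to 1 for gene body H3K4me1, 4 to 6 for outlying H3K4me1, 8 for outlying H3K4me3, 3 for gene body H3K4me3, 8 for promoter H3K4me3 and 8 without overlap. Of 104 length differences over all alternatives 102 were in the same direction, with exact p from 0.1 to 1. These include the midpoint and replicate block values, which could not differ from the main ones.

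Replicate numbers pair nothing in the labels. Same-numbered libraries of the marks had correlated deviations of 0.118, 0.0463 and 0.0202 across 14451 genes. For differently numbered libraries the values ran from -0.0908 to 0.0685. Whether same-numbered libraries came from the same sample was not tested and is not stated. With the replicate block the differences were unchanged in size, from 985 bp at Tet1 to 2868 bp at Dnmt1 and Tet3, with an exact sign-flip p of 0.25, the smallest possible for 3 pairs. The H3K4me1 peaks at these genes rest on 4 to 10 summit fragments, with a median of 6, the same as over all H3K4me1 peaks. No such value was computed for H3K4me3.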
